A study of Mus musculus with 4 samples.

Results

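The genes described here encode receptors for glutamate other than the NMDA type, for GABA, glycine, acetylcholine, serotonin, dopamine and noradrenaline, together with scaffold proteins of the postsynaptic density. They were taken by gene symbol from the array's annotation: families Gria, Grik, Grid, Grm, Gabr, Gabbr, Glr, Chrn, Chrm, Htr, Drd, Adra, Adrb, Dlg, Dlgap, Shank, and Homer2 and Homer3. The pattern matched 115 array features of 71 genes among 13738 features with 1 gene symbol. A feature was a member if it had a value on at least 1 array, which held for 94 features of 63 genes, out of 16281 features in the table. The other 21 features were listed at exact 0 on every array, and with them 8 genes had no value at all: Gabra5, Chrna6, Chrm3, Chrm4, Htr1b, Htr2a, Htr2b and Htr4. The pattern also took Grid2ip, which is no receptor but a protein that binds a delta glutamate receptor, and it is kept apart below.

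The RNA came from the dentate gyrus of young male C57BL/6J mice, and 1 two-colour array was run for each of 4 times, 1, 2, 4 and 6 h. On each array RNA of mice given MK-801 (300 µg per g body weight as the labels print it) carried Cy5, and RNA of mice given saline (5 µL per g) carried Cy3. Time 0 is the last shock given to MK-801 mice, yet the labels speak of control mice for the RNA of both channels, so whether the mice on these arrays were shocked is not settled. The number of mice behind each RNA is unknown here. Because no time was repeated, a ratio at 1 time has no replicate error. No dye pair was turned round, so in a mean over times a constant dye bias of a feature cannot be told apart from treatment. Such a bias cancels in a slope with time.

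Each value is a log ratio of the channels of 1 array, read as log2 and centred on the array's median over the 7684 features with 1 symbol and a value on every array. The log base and the direction are not stated: a positive ratio may mean more RNA in the MK-801 channel or more in the saline channel. Signs below are those of the deposited table, and a change of direction would turn all of them together. The table holds ratios alone, so no level of a receptor, no signal over background and no check of the tissue by marker levels could be had. In a ratio from tissue RNA, fewer cells of a type and less RNA per cell cannot be told apart.

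MK-801 plugs the open channel of NMDA receptors, the glutamate receptors that let calcium in when a neuron is already depolarised. AMPA and kainate receptors carry most of the fast excitatory current beside them, metabotropic glutamate receptors act through G proteins, and GABA-A and glycine receptors are chloride channels that mostly inhibit. In the dentate gyrus, granule cells receive glutamate from the entorhinal cortex, inhibition from local interneurons, and acetylcholine and monoamines from fibres of the septum and brain stem. Scaffolds of the Dlg, Dlgap, Shank and Homer families tie receptors to each other and to signalling proteins below the synapse.

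Of the 94 member features, 47 (39 genes) had a value on all 4 arrays, 12 on 3, 12 on 2 and 23 on 1. Scaffolds were measured most fully, with 13 of 14 features on all 4 arrays. Of the receptor features 33 of 79 (41.8%) were, among them 3 of 4 for AMPA, 3 of 4 for kainate and 3 of 4 for adrenergic receptors. In the larger classes it was 7 of 21 for GABA-A, 5 of 11 for nicotinic, 4 of 15 for serotonin and 4 of 8 for dopamine receptors. A value on every array was found for 40.9% of all 115 matching features and for 55.9% of all features with 1 symbol. The single feature of Gabbr1, a subunit of the metabotropic GABA-B receptor, had a value at 1 h alone (0.91).

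On the single array at 1 h, glutamate and monoamine receptors lay on opposite sides of 0. On that array, features of the same member gene differed by a median of 0.44 and shared a sign in 48.1% of pairs. Glutamate receptor features were negative in 7 of 8 cases, with a median of -0.26, while receptors for monoamines were positive in 10 of 11, with a median of 0.19. Scaffolds lay with the glutamate receptors (median -0.10, 3 of 13 positive). GABA-A features had a median of -0.17 with 2 of 7 positive, and nicotinic features 0.25 with 3 of 5 positive. The 47 members together had a median of -0.06 with 44.7% positive, and all 7684 features are at 0.00 with 50% positive by the centring.

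At 2 h scaffolds and monoamine receptors lay on the opposite sides. Scaffolds were positive in 11 of 13 features, with a median of 0.19, and the AMPA median was 0.37 with 2 of 3 positive, while glutamate receptors as a whole had 0.08 with 4 of 8 positive. Monoamine receptors were positive in 3 of 11 features (median -0.14), nicotinic receptors in 1 of 5 (-0.13) and GABA-A receptors in 3 of 7 (-0.12). All 47 members had a median of -0.01, with 48.9% positive.

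At 4 h and 6 h glutamate receptors had medians of 0.08 and 0.04, with 5 and 6 of 8 features positive. Counted as positive were Grid1 at 4 h and Grik2 at 6 h, whose ratios round to 0.00. Scaffolds had medians of 0.04 and 0.07, with 9 and 8 of 13 positive. Monoamine receptors had 0.06 and -0.05, GABA-A receptors -0.09 and -0.01, and nicotinic receptors 0.10 and -0.19. Over every feature with a value, the signs at 6 h were the other way for monoamine receptors (0.09, 10 of 16 positive) and nicotinic receptors (0.13, 5 of 9 positive), and so was nicotinic receptors' sign at 2 h (0.10, 6 of 10 positive). The medians of the 47 members were 0.03 and 0.02, with 59.6% and 53.2% positive. With 1 array a time these class values carry no test, and the features within a class are no replicates.

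**Figure D1:**
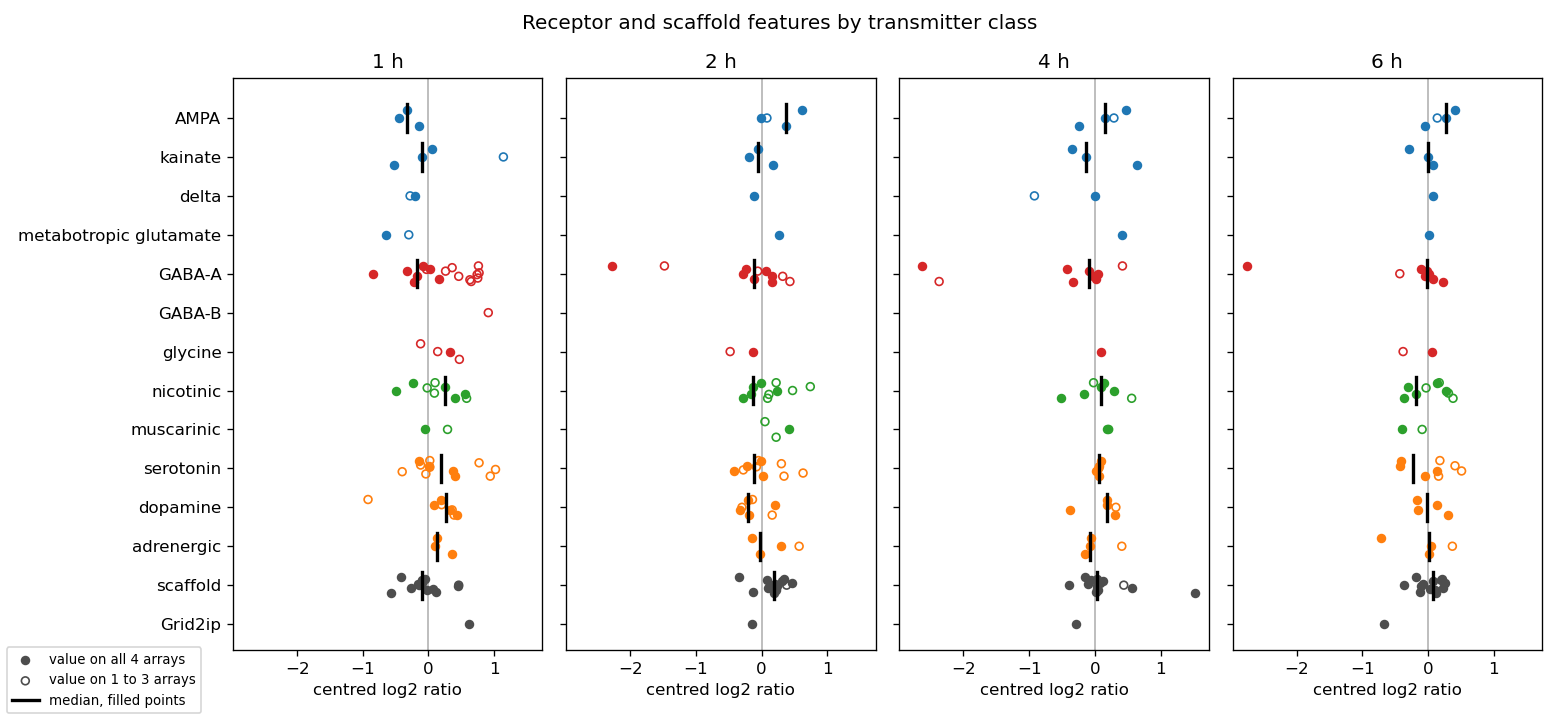
Centred log2 ratio of each member feature (horizontal axis) by class (vertical axis) at 1, 2, 4 and 6 h. Filled points have a value on all 4 arrays, open points on 1 to 3 arrays, colours group the transmitters, and black bars are medians of the filled points. At 1 h the glutamate classes lie mostly left of 0 and the filled monoamine points mostly right of it.

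Counting every feature with a value at 1 h kept the glutamate and monoamine sides, with 2 of 11 and 18 of 23 features positive. Of all 10606 features with a value there, 54% were positive. The monoamine features with a value at 1 h alone were 4 of serotonin receptors (3 positive) and 1 of dopamine receptors (positive). The serotonin median fell from 0.19 to 0.02. The GABA-A median turned to 0.26, with 11 of 17 positive. Of the 10 GABA-A features added, 8 had a value at 1 h alone, and 7 of these were positive. Among the members 18 features had a value at 1 h alone, 8 of them GABA-A and 4 serotonin receptor features. Their median at 1 h was 0.69 and 14 of 18 were positive. The 929 such features of the whole table had a median of 0.46 and 77.1% positive, so a high ratio at 1 h was also found outside the receptor genes in features without later values. Among members with values on all 4 arrays the median at 1 h was -0.06.

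The highest ratios at 1 h came from this group. Grik3, a kainate receptor subunit, had 1.14, and Htr1f and Htr1a, inhibitory serotonin receptors, had 1.02 and 0.94. None of these features had a later value, and the other Htr1a feature had -0.04, 0.34 and 0.16 at 1, 2 and 6 h. The other Htr1f feature had a value at 6 h alone, 0.51. Members at or above 1 numbered 2 of 82 at 1 h (background 196 of 10606 features, 1.85%).

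The 8 members numbered between 10638 and 10735 lie close together on the feature list, a range chosen after the values were seen. Of these, 7 had a value at 1 h alone: Htr5b (0.77), Gabrr2 (0.76), Gabbr1 (0.91), both of a pair of Gabrg3 features (0.74 and 0.77), Glra3 (0.14) and Grm8 (-0.30). The other was Grid2ip, with 0.61 at 1 h and values on every array. Of all 94 features in that range 31.9% had a value at 1 h alone, against 6.54% of the whole table, and their median at 1 h was 0.38, against 0.03. The feature number may follow the place on the array, which the sources used here do not give, and its part in these ratios was not tested.

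**Figure D2:**
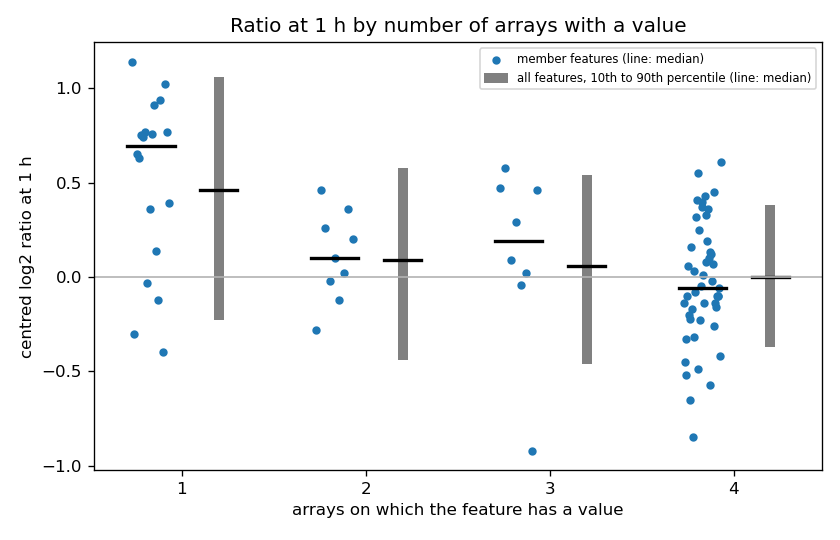
Centred log2 ratio at 1 h (vertical axis) by the number of arrays on which a feature has a value (horizontal axis). Blue points are member features with their median as a line, and grey bars run from percentile 10 to percentile 90 of all features with 1 symbol, with their median as a line. Members seen on 1 array have a median of 0.69 and those seen on all 4 a median of -0.06.

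No member passed any of the 3 tests that gave all 4 arrays equal weight. In limma 0 of 47 features passed an adjusted p of 0.05 for the mean over the times, for the slope on log2 hours or for late (4 and 6 h) minus early (1 and 2 h) arrays, and 0 of 7684 features did so in each (background 0%). Unadjusted p lay under 0.05 for 2 of 47 members in the mean (all features: 15.3%), for 9 of 47 in the slope (15%) and for 2 of 47 in late minus early (5.54%). The error in these tests is the spread between times, which holds biological change as well as technical spread.

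Without the 1 h array limma tested the mean over 2, 4 and 6 h, and 5 of 47 members passed, beside 914 of 7684 features (11.9%). The share among members is near that of all features. The 5 were Gria4 and Chrnb2 (positive) and Gabrr1, Chrna5 and 1 feature of Drd3 (negative). Of the positive kind there were 2 members (background 6.49%) and of the negative kind 3 (5.4%). Each array was left out in turn, and without 2, 4 or 6 h 0 members passed for the mean. Weighting the arrays by their fit gave the 1 h array the lowest weight for the mean (0.2085, against 0.8793, 1.637 and 3.331 at 2, 4 and 6 h). It called 13 of 47 members for the mean (background 27.1%). Late minus early without 2 h called 10 of 47 (17.5%), and both are again near the shares of all features.

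Single ratios were compared with fixed sizes as well, over features with values on all 4 arrays. At or above 1 were 0, 0, 1 and 0 of 47 members at 1, 2, 4 and 6 h (background 0.325%, 0%, 0.0911% and 0.0781%). At or below -1 were 0, 1, 1 and 1 (0.312%, 0.729%, 0.625% and 0.573%), each time Gabrr1. At or above 0.5 were 2, 1, 3 and 0 members (4.7%, 1.43%, 2.99% and 1.89%), and at or below -0.5 were 4, 1, 2 and 3 (4.76%, 2.41%, 3.58% and 2.73%).

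Gria4 encodes an AMPA receptor subunit. Its feature had ratios of -0.33 at 1 h and 0.61, 0.47 and 0.41 at 2, 4 and 6 h, so the later ratios lay between 0.41 and 0.61 and the one at 1 h on the other side of 0. The mean of the later arrays was 0.50 ± 0.06 (SE; limma, adjusted p = 0.02), while over all 4 arrays it was 0.29 ± 0.16 (adjusted p = 0.411). Chrnb2, the beta subunit of the common brain nicotinic receptor, had -0.49, 0.24, 0.29 and 0.27. Its later mean was 0.27 ± 0.05 (adjusted p = 0.0409), against 0.08 ± 0.14 over all 4 arrays (adjusted p = 0.832). Its usual partner Chrna4 was also positive, at 0.09, 0.56 and 0.38 at 2, 4 and 6 h, with no value at 1 h.

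Drd3, an inhibitory dopamine receptor, and Chrna5, an accessory nicotinic subunit, had the opposite course. Chrna5 had 0.41 at 1 h and -0.29, -0.52 and -0.37 later, with a later mean of -0.39 ± 0.07 (limma, adjusted p = 0.0311). Drd3 feature 536 had 0.33, -0.33, -0.38 and -0.16, with a later mean of -0.29 ± 0.07 (adjusted p = 0.0471). The second Drd3 feature, 2963, had 0.08, 0.20, 0.18 and 0.13, positive on every array, with a later mean of 0.17 ± 0.05 (adjusted p = 0.088). The features of this gene therefore disagree in sign at each later time.

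The upstream sequences of 3 of these genes are shown because Gria4 and Chrnb2 had the same run of signs and Drd3 feature 536 the opposite one. Drd3 feature 2963 did not share that opposite run, and Chrna5, which also had it, is not shown. They are the 250 bases before the gene start in RefSeq on GRCm38.p6, 5′ to 3′ on the gene's strand, and these 3 of the 5 genes were picked after their values were seen. Gria4 lies at chr9:4796235-4796484 (minus strand), Chrnb2 at chr3:89764633-89764882 (minus strand) and Drd3 at chr16:43761971-43762220 (plus strand). Capitals mark TGACG or its reverse complement CGTCA, the core of the CRE bound by CREB-type factors.
Gria4: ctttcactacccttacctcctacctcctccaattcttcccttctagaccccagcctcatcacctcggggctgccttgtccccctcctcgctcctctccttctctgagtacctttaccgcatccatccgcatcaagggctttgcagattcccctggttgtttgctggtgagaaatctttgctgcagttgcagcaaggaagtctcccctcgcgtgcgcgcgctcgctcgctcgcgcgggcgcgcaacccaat
Chrnb2: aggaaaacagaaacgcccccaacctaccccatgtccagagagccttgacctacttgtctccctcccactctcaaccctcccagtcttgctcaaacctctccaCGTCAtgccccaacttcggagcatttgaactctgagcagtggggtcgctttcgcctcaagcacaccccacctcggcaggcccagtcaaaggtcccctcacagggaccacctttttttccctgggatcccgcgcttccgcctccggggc
Drd3: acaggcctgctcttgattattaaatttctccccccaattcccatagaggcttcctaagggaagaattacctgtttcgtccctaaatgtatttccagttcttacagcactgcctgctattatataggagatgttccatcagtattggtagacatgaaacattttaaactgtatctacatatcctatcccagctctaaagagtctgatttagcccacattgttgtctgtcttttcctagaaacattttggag
The core was found 1 time in the Chrnb2 window and 0 times in the other windows, where 17.8% of 32851 RefSeq windows of this length hold it on either strand. The full CRE TGACGTCA (1.55% of windows) and the GC box GGGCGG (32.7%) were found in none of the 3; the full CRE contains the core. The G and C content was 58.8% for Gria4, 59.6% for Chrnb2 and 39.2% for Drd3. These are descriptions of letters only.

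The run of Gria4 was shared by 10 of the 47 members, itself included: negative at 1 h and positive at each later time (21.3%, against 15.9% of all features), and 7 had the reverse (14.9%, against 15.8%). The 10 features were those of Gria4, Grik1, Grm8, Chrnb2, Dlg1, Dlg3, Dlg4, Homer3 and 2 of Homer2. Glutamate receptors and scaffolds made up 9 of the 10, beside 21 of the 47 members, and the Dlg and Homer families gave 3 features each. This split in part restates the class signs at 1 h and 2 h given above. Other features of the same genes, Dlg1 18453, Dlg3 15436, Dlg4 15437 and Homer2 15613, did not share the run. The run was picked after the values of Gria4 were seen. The 7 reverse ones were Grik5, Gabrg3, Chrna5, Chrnb1, Drd3, Adra2c and Grid2ip. Only 2 members were positive on every array (Dlg3 15436 and Drd3 2963; 4.26%, against 13% of all features), and 2 were negative on every array (Gabrr1 16881 and Shank3; 4.26%, against 12.7%).

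**Figure D3:**
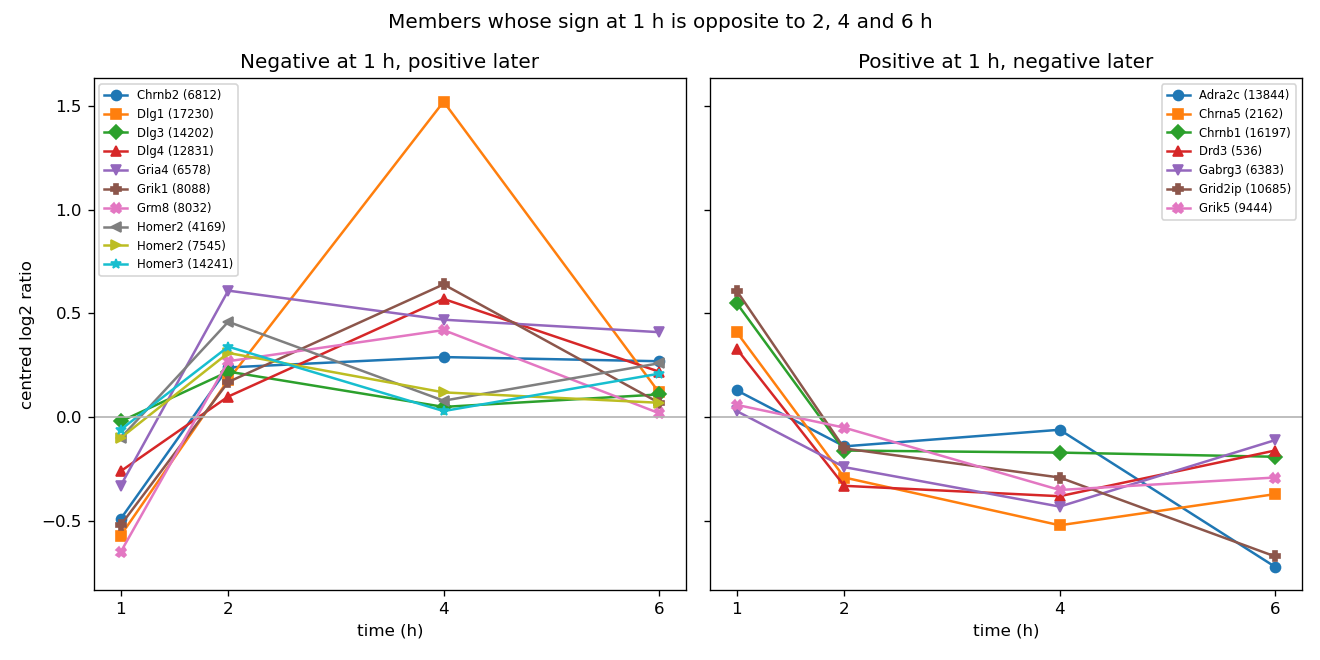
Centred log2 ratio (vertical axis) at 1, 2, 4 and 6 h (horizontal axis) of the 10 members that are negative at 1 h and positive later (left) and the 7 with the reverse signs (right). Each line is 1 feature, with its number in the legend. Dlg1 stands out at 4 h with 1.52.

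Among AMPA receptor subunits, which join to form the channel, the 3 with a value at 1 h were all negative there. Gria1 had -0.14, 0.37, -0.24 and -0.04 at 1, 2, 4 and 6 h and so changed sign more than once. Gria3 had -0.45, -0.01, 0.15 and 0.27, higher at each time than before. Its slope was 0.27 ± 0.07 per doubling of time (SE; limma, unadjusted p = 0.00685, adjusted p = 0.276). Gria2, the subunit that keeps calcium out of the channel, had no value at 1 h and 0.08, 0.29 and 0.14 later.

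Kainate receptor subunits did not move as 1 group. Grik1 had -0.52, 0.17, 0.64 and 0.07, the widest course of the class. Grik2, a subunit of the kainate receptors at mossy fibre synapses, stayed between -0.19 and 0.00. Grik5, which needs another subunit to form a channel, had 0.06, -0.05, -0.35 and -0.29. The delta receptor gene Grid1 had -0.20, -0.11, 0.00 and 0.08 on feature 14210, and on feature 4330 it had -0.28 at 1 h and -0.92 at 4 h. Grm8, a presynaptic metabotropic receptor that lowers glutamate release, had -0.65, 0.27, 0.42 and 0.02, and its other feature had -0.30 at 1 h, the same sign. No other metabotropic glutamate receptor was among the members.

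GABA-A receptor features with values on every array were mostly small after 1 h, apart from Gabrr1. Gabra2, an alpha subunit of hippocampal synapses, had -0.22, 0.16, -0.34 and 0.22. Gabra4, an alpha subunit found with delta subunits outside the synapse in granule cells, had -0.85, -0.28, 0.05 and 0.02 on feature 18563, with a slope of 0.35 ± 0.08 (limma, unadjusted p = 0.00437, adjusted p = 0.276). Its other feature, 13485, had -0.17, 0.15, -0.03 and -0.04. Gabrd, the delta subunit itself, had 0.32 at 2 h and 0.42 at 4 h and no other value.

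Gabrg1, Gabra2 and Gabra4 are near neighbours in the RefSeq gene table, with 1 other gene between Gabra2 and Gabra4. Gabrg1 had -0.32, 0.06, -0.09 and -0.01. Each of the 4 features of this cluster with values on all arrays was negative at 1 h, and both Gabra4 features are among them. Of all features with values on all arrays 50% were positive at 1 h, and the part of gene position in these signs was not tested. A further Gabra2 feature, with a value at 1 h alone, had 0.65 there. Gabra3 had 0.16, -0.12, 0.02 and 0.07 on feature 11095, while feature 1344 had -2.37 at 4 h and no other value. Gabrg3 had 0.03, -0.24, -0.43 and -0.11 on feature 6383. Gabrb2, a beta subunit, had 0.75 at 1 h on 1 feature and 0.43 at 2 h on the other.

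Gabrr1 encodes a rho subunit, known best from the retina. Its feature 16881 had -0.08 at 1 h and -2.28, -2.63 and -2.76 at 2, 4 and 6 h, the lowest member ratio at each later time. The later mean was -2.56 ± 0.10 (SE; limma, adjusted p = 0.000221), and over all 4 arrays it was -1.94 ± 0.44 (adjusted p = 0.225). The other Gabrr1 feature had 0.36 at 1 h and no later value. The neighbouring rho gene Gabrr2 had -1.48 at 2 h on feature 15829 and 0.76 at 1 h on feature 10642. Of 16281 features 202 lay at or under -1.5 on some array, and 34 of these lay among the 291 features numbered 15600 to 15899. That range was chosen from the values, as the one with the most low features. The low Gabrr2 feature has a number in it but, at -1.48, is not 1 of the 34.

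Glycine receptors were sparsely measured. Glrb, the beta subunit that anchors the receptor to gephyrin, had 0.32, -0.13, 0.10 and 0.06 on feature 12292, and -0.12 at 1 h on its other feature. Glra1, an alpha subunit of spinal cord and brain stem, had 0.47, -0.48 and -0.38 at 1, 2 and 6 h. The inhibitory neuron markers, which follow the cells that release GABA, had medians of -0.06, 0.05, 0.03 and 0.00 over 13 features, with 2, 7, 8 and 7 of 13 positive. Granule cell markers had medians of -0.03, 0.02, -0.03 and -0.12 over 10 features. The part of either cell type in the receptor ratios was not tested.

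Among nicotinic genes, Chrnb1 and Chrng are known from muscle. Chrnb1 had 0.55, -0.16, -0.17 and -0.19 on feature 16197, with a slope of -0.27 ± 0.09 (limma, unadjusted p = 0.0327, adjusted p = 0.299), while feature 7110 had 0.09, -0.02 and -0.03 at 1, 4 and 6 h. Chrng had -0.23, -0.01, 0.14 and 0.13 on feature 1210. Chrnb3 had 0.25, -0.13, 0.10 and -0.31. Chrna7, whose receptor is rich in the hippocampus, was positive where measured, at 0.58, 0.11 and 0.31 at 1, 2 and 6 h. Chrne had the highest member ratio at 2 h (0.74), with -0.02 at 1 h.

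Chrm1, the main muscarinic receptor of hippocampal principal neurons, had -0.05, 0.42, 0.18 and -0.40 on feature 8303. Its other feature gave 0.22 at 2 h and 0.21 at 4 h, with the sign of the first at both times. Chrm2, an inhibitory muscarinic receptor, had 0.29, 0.05 and -0.09 at 1, 2 and 6 h. Both genes were thus negative at 6 h on the features with a value there.

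Serotonin receptors with values on all 4 arrays were 4 of 15 features. Htr3a, the serotonin-gated channel of interneurons, had 0.37, -0.42, 0.01 and 0.14, and Htr1d had 0.40, 0.02, 0.07 and -0.05. Htr5a had 0.01, -0.22, 0.06 and -0.43, and Htr6 had -0.14, -0.01, 0.10 and -0.41 on feature 2861, but 0.30, 0.06 and 0.18 at 2, 4 and 6 h on feature 2039. Htr2c had 0.02, 0.63 and 0.41 at 1, 2 and 6 h, among the highest members at both later times. All 5 serotonin features with a value at 4 h lay between 0.01 and 0.10.

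Dopamine receptor features were positive at 1 h in 7 of 8 cases and at 2 h in 2 of 7. Drd2 had 0.43, -0.20, 0.31 and 0.30 on feature 15442, and 0.36 and 0.16 at 1 and 2 h on feature 17528. Drd5, which couples to cyclic AMP synthesis, had 0.19, -0.21, 0.19 and -0.17. Drd1 had a value at 1 h alone (0.39). The exception at 1 h was Drd4 feature 14404, with -0.92, -0.14 and 0.32 at 1, 2 and 4 h, while feature 9137 had 0.20 and -0.30 at 1 and 2 h.

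Adrenergic receptors were those of Adra1b and Adra2c. Adra1b had 0.36, -0.03, -0.15 and 0.02 on feature 3579, but 0.57, 0.41 and 0.37 at 2, 4 and 6 h on feature 7642. Adra2c, an inhibitory receptor on noradrenergic terminals, had 0.10, 0.30, -0.07 and 0.04 on feature 11423. Its feature 13844 had 0.13, -0.14, -0.06 and -0.72, with a slope of -0.26 ± 0.10 (limma, unadjusted p = 0.0386, adjusted p = 0.311).

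Scaffolds gave the most complete record. Homer2, an adaptor that binds metabotropic glutamate receptors and Shank proteins, had 4 features. Its feature 4169 had -0.10, 0.46, 0.08 and 0.26, feature 7545 had -0.10, 0.31, 0.12 and 0.07, and feature 15613 had -0.10, 0.08, -0.06 and 0.19. These 3 features were at the same ratio at 1 h and all positive at 2 h and 6 h. The fourth, 18275, had 0.46, 0.38 and 0.44 at 1, 2 and 4 h. Its relative Homer3 had -0.06, 0.34, 0.03 and 0.21.

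The membrane-associated guanylate kinases of the Dlg family hold AMPA and NMDA receptors at the synapse. Dlg4, the gene of PSD-95, had -0.26, 0.10, 0.57 and 0.22 on feature 12831 and 0.45, 0.24, 0.04 and -0.11 on feature 15437, opposite courses with the same mean of 0.16. The slope of feature 15437 was -0.21 ± 0.06 (limma, unadjusted p = 0.0131, adjusted p = 0.282). Averaged over both features the slope was 0.01 (adjusted p = 0.931). Dlg1, the gene of SAP97, had -0.57, 0.18, 1.52 and 0.12 on feature 17230 and 0.12, -0.13, 0.01 and -0.12 on feature 18453. The ratio of 1.52 was the only member value at or above 1 at 4 h, and the second feature did not share it.

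Dlg3, the gene of SAP102, was the steadiest: its features had -0.02, 0.22, 0.05 and 0.11, and 0.07, 0.17, 0.04 and 0.03. Dlgap1, which links Dlg4 to Shank proteins, had -0.16, 0.21, -0.10 and -0.08. Dlg5, a relative known mostly from epithelia, had -0.14, 0.19, -0.40 and -0.37. Shank3, which joins the Dlgap and Homer layers, was negative on every array, at -0.42, -0.35, -0.15 and -0.19. Its mean was -0.28 ± 0.07 (SE; limma, unadjusted p = 0.00929, adjusted p = 0.243). Its other feature was listed at 0 throughout.

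Grid2ip had 0.61, -0.15, -0.29 and -0.67, lower at each time than before. Its slope, -0.46 ± 0.08 per doubling of time, had the smallest unadjusted p of any member (limma, unadjusted p = 0.00153, adjusted p = 0.276). Its feature number, 10685, lies in the range with high ratios at 1 h given above, and its part in this slope was not tested.

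Features of the same gene were compared within an array. Their differences hold measurement error and may hold differences between transcripts. These could not be told apart, as probe sequences are not given in the sources used here. Over pairs of features of the same member gene, the median absolute difference in log2 ratio was 0.44 at 1 h (27 pairs), 0.23 at 2 h (19), 0.25 at 4 h (18) and 0.22 at 6 h (12). Over all genes it was 0.29, 0.20, 0.18 and 0.15. Pairs of member features had the same sign in 48.1%, 57.9%, 55.6% and 50% of cases, against 55.3%, 57.4%, 62% and 64.8% over all genes.

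**Figure D4:**
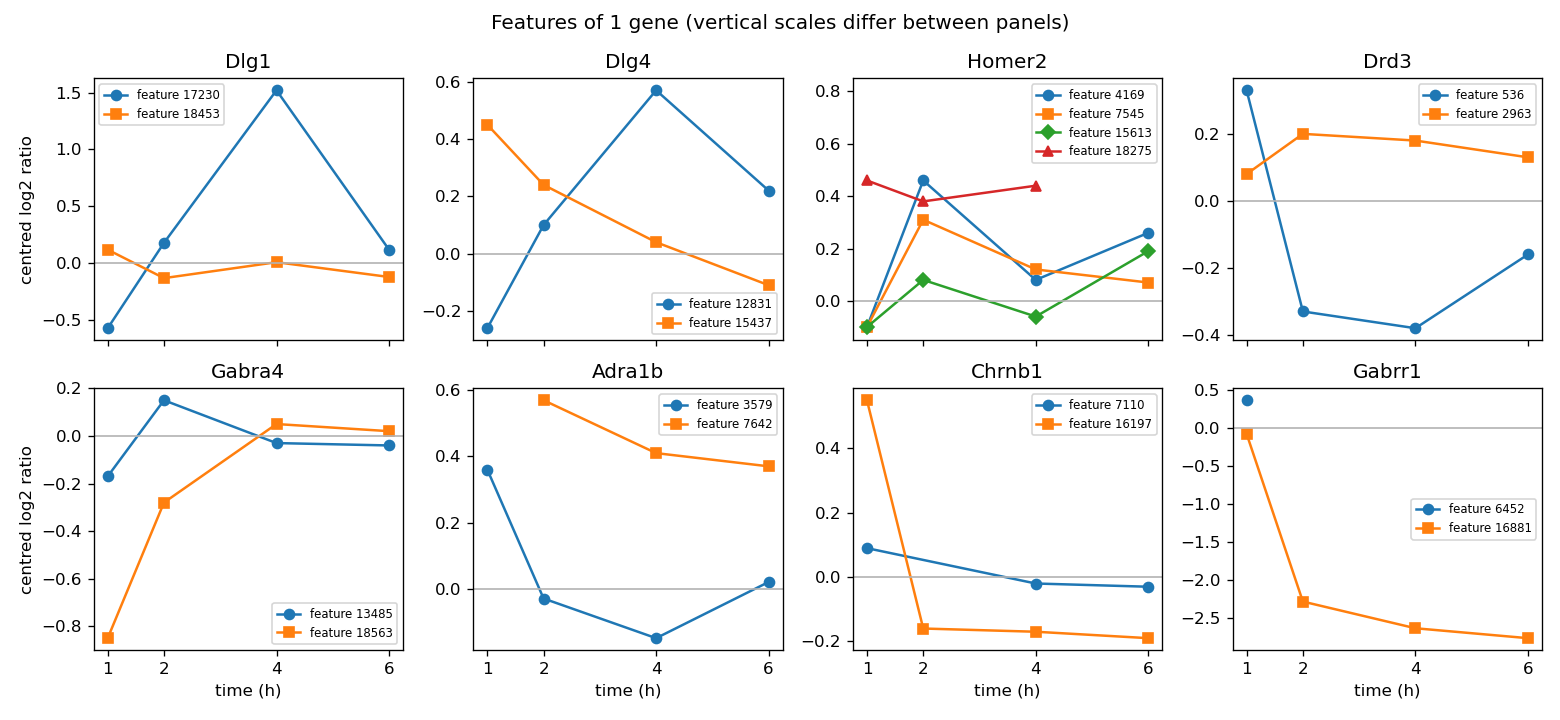
Centred log2 ratio (vertical axis, scale set per panel) at 1, 2, 4 and 6 h (horizontal axis) of every member feature of 8 genes. Each line is 1 feature, and missing points are exact 0 in the table. The Dlg4 features cross, and the Dlg1 features part at 4 h (1.52 and 0.01).

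Genes that carry these receptors to the synapse or assemble it formed a list of 50, of which 19 genes (22 features) had values on all 4 arrays. In the 3 limma tests over all 4 arrays 0 of 22 passed, and without 1 h 1 positive and 1 negative feature did (background 6.49% and 5.4%). The positive one was Gabarapl1, a relative of the GABA-A receptor-associated protein, with -0.02, 0.35, 0.23 and 0.30 (adjusted p = 0.0391). The negative one was 1 feature of Lin7c, a partner of Dlg scaffolds, with -0.72, -1.36, -1.98 and -1.52 (adjusted p = 0.00423). Another Lin7c feature had -0.22, 0.19, -0.07 and -0.01, and feature 4513 had 0.50 at 1 h and no later value. The low one, 15868, lies in the feature range chosen above for its low ratios and is itself counted there. Cacng2, the AMPA receptor partner stargazin, had -0.03, 0.12, 0.50 and 0.42, and Cnih3, another AMPA receptor partner, stayed between -0.27 and -0.21. Pick1 feature 4516 had -2.24 and -2.49 at 4 and 6 h and no earlier value, while Pick1 feature 17497 had -1.01, 0.21, 0.40 and 0.14. The list's medians were 0.01, 0.11, -0.01 and 0.07.

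Markers of the other cells of the tissue, over features with values on all 4 arrays, had these medians at 1, 2, 4 and 6 h: astrocytes -0.06, 0.05, -0.03 and 0.10 (9 features), oligodendrocytes 0.02, 0.07, 0.13 and 0.05 (9), microglia 0.17, 0.07, 0.09 and 0.23 (10). CA pyramidal cells had -0.16, -0.14, -0.10 and -0.02 (6 features) and vessels -0.01, -0.03, -0.06 and 0.10 (4). Choroid plexus, whose fragments can come with a hippocampal dissection, had -0.17, -0.89, -0.60 and -0.70 (3 features), with 1, 0, 0 and 0 positive. These medians are the values of the Ttr feature, and the other features are both of Kl. The 3 limma tests with equal weights called 0 of these features. For the mean over 2, 4 and 6 h limma called 6.49% of all features positive and 5.4% negative. Among the markers the positive calls were 3 of 9 astrocyte, 3 of 10 microglia and 1 of 9 oligodendrocyte features. The negative calls were 2 of 6 CA pyramidal, 2 of 3 choroid plexus and 1 of 4 vessel features. It called 0 of 10 granule cell and 0 of 13 inhibitory neuron features. With so few features a list, these counts were not tested against the shares of all features. With array weights 14.4% of all features were called positive and 12.7% negative. The positive marker calls were then 3, 4 and 3 for astrocytes, microglia and oligodendrocytes. The negative ones were 2, 2 and 1 for CA pyramidal cells, choroid plexus and vessels. Weights also called 1 microglia feature negative, 3 granule cell features negative, and 2 inhibitory neuron features positive and 1 negative.

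Among the astrocyte features, Gfap, the intermediate filament of astrocytes, had -0.07, 0.42, 0.32 and 0.41 (mean over 2, 4 and 6 h in limma, adjusted p = 0.0259). Gfap was 1 of the 3 called positive and does not stand for the list of 9 features, whose medians are given above. Aqp4, which was not called, had -0.10, 0.00, -0.26 and -0.10. Some negative marker features ran like that of Gabrr1: Kl feature 13730 had 0.23, -2.63, -3.03 and -3.19 (adjusted p = 0.000221), and Nectin3 feature 17709 had -0.24, -2.28, -3.17 and -2.89 (adjusted p = 0.0017). Other features of these genes with values on every array did not share that course. Kl feature 2148 lay between -0.21 and -0.09, Nectin3 feature 7106 between -0.08 and -0.02, and Nectin3 feature 9763 between -0.25 and 0.12. At 1 and 2 h alone, Kl feature 2114 had 0.08 and -0.55, and Nectin3 feature 16093 had -0.65 and -0.23. Ttr, the transthyretin gene that marks choroid plexus, had -0.17, -0.89, -0.60 and -0.70 (adjusted p = 0.0111). The part of these cell types in the receptor ratios was not tested.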

How the data were processed

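The values are those of the series' deposited table, a log2 ratio of the Cy5 and Cy3 channels per array feature as deposited by the authors. Base 2 is a working reading of the values, and scanning, background correction and normalisation are not given in the sources used here. Exact 0, which filled 25.5%, 24.9%, 37.4% and 35.4% of features at 1, 2, 4 and 6 h, was read as no value. Intensities were not used here, and the number of arrays limits the precision. Symbols came from the platform annotation. All 94 members matched the RefSeq gene table of GRCm38.p6 by Entrez identifier, with 0 symbols changed. Arrays were centred on the median of the 7684 features tested (1 symbol, a value on all 4 arrays). In limma 3.58.1 (R 4.3.3), lmFit and eBayes gave 3 two-sided tests per feature: mean against 0, slope on log2 hours, and late minus early, with Benjamini-Hochberg adjustment over all features. Members with values on fewer arrays were described, not tested. Nothing says that the arrays hold separate mice per time beyond their labels, so p-values measure the spread between arrays. Members, classes and lists were chosen with earlier results of these data known. Named members were the largest mean and slope of each class, the 3 highest and 3 lowest at each time, those at an unadjusted p under 0.05, genes with several features, and a fixed set of well-known receptors and scaffolds. The 3 promoters were picked after the values were seen. Alternatives are given in the closing section.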

Additional observations from a re-analysis of the deposited data

How the results depend on the processing

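Leaving out 1 array at a time gave 0 to 914 features and 0 to 5 members for the mean (914 and 5 without 1 h), 0 to 1 feature and 0 to 0 members for the slope, and 0 to 1344 features and 0 to 10 members for late minus early times (1344 and 10 without 2 h, where 1 h alone is early and is assumed to vary like the late arrays). Array weights called 2083 features and 13 members for the mean, values on at least 3 arrays 15 features, quantile normalisation 9, and exact 0 read as a value 34 features for late minus early. Without centring, with equal spread of the arrays, with 1 value per gene and without low features, 0 features passed in each test. Members past 1 in either direction were 0, 1, 2 and 1 at 1, 2, 4 and 6 h. They became 1 and 2 at 1 and 2 h with exact 0 read as a value, 2 and 2 there with every feature on that array (a setting chosen after seeing the data), 1 at 4 h with 1 value per gene, 0, 1 and 0 at 2, 4 and 6 h without low features, and 6, 2, 5 and 3 with a threshold of 0.5. Of 36 medians, those of classes and of all members together, 15 had the other sign under at least 1 setting. The median of all members did so at each time. The class medians that moved past the spread of their features were GABA-A at 1 h (0.26 with every feature), nicotinic at 2 h (0.09 with exact 0 read as a value, 0.10 with every feature) and at 6 h (0.13 with every feature), and serotonin at 4 h (0.00 with exact 0 read as a value) and at 6 h (0.14 when features with 3 arrays were added, 0.15 with every feature). With 1 value per gene the Dlg4 slope turned to 0.01 and its late minus early difference to 0.05, because its features have opposite courses. The cause of the other moves was not tested. No paired analysis was possible because each time has 1 array, which leaves no repeated number to use as a block; each ratio already sets the channels of 1 array against each other.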
